A study of Mus musculus with 49 samples.

Results

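The TREM2-TYROBP axis is described here by 10 genes, out of the 45252 listed in the count table: the receptor gene Trem2 and its adaptor Tyrobp, the signalling enzymes Inpp5d and Plcg2, the transcription factor Spi1, the actin regulator Abi3, and the surface receptors Cd33, Siglec1, Cd300lf and Cd84. They are defined by name, for their known roles in microglia, and were chosen with earlier results of these data known. All 10 passed the filter on low counts, which left 18220 genes to be tested.

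TREM2 is a surface receptor of microglia, the resident macrophages of the brain, that binds lipids and lipoproteins. It has no signalling tail of its own and works through TYROBP (DAP12), an adaptor whose phosphorylated motif recruits the kinase SYK and, further down, phospholipase C gamma 2 (Plcg2). The phosphatase SHIP1 (Inpp5d) and inhibitory receptors such as human CD33 restrain this pathway, and PU.1 (Spi1) is the main transcription factor of the myeloid lineage. Variants near TREM2, INPP5D, PLCG2, CD33, SPI1 and ABI3 are associated with the risk of Alzheimer disease in people.

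RNA was sequenced from the neocortex of 49 mice, 1 library each, on a background mixed from the strains C57BL/6J and C3H/HeJ. The bigenic mice carry NEFH-tTA and tetO-hTDP43ΔNLS, so that removal of doxycycline switches on, in neurons with an active neurofilament heavy chain promoter, a human TDP-43 that lacks the nuclear localization signal. The ctrl-PBS mice carry the tetO-hTDP43ΔNLS allele alone, lack the driver and were taken off doxycycline as well. All mice were first injected at 8 weeks of age, lost doxycycline at 25.5 weeks and were sacrificed 3 weeks later, at 28.5 weeks. There were 17 ctrl-PBS mice (10 females, 7 males) and 10 TDP-PBS mice (4 females, 6 males), which received PBS in place of antigen. The TDP-10+12 group (10 mice, 6 females and 4 males) was vaccinated against TDP-43 with peptides 10 and 12 and the TDP-15 group (12 mice, 5 females and 7 males) with peptide 15, a phosphorylated C-terminal peptide, each at 40 µg. The antigens were ovalbumin conjugates given with CpG and an aluminium adjuvant. Monogenic mice vaccinated with peptides were not analysed here. The driver is neuronal, so the transgene is not meant to be active in microglia.

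Total counts lay between 17775738 and 21033608 per mouse, so that 3 counts, taken as the floor, are 0.139 to 0.165 CPM, the unit used throughout for a gene’s counts relative to the scaled library total. Microglial identity was measurable throughout, since the summed level of 11 pan-microglial markers (Csf1r, C1qa, Ctss and others) lay between 333 and 436 CPM in ctrl-PBS. A few libraries stood apart. Mouse 126 of TDP-15 was the highest of its group in 9 of the 10 genes, mouse 184 of TDP-15 the lowest in 7 and mouse 242 of TDP-10+12 the lowest in 8. Counts of Fam205a3, a gene of chromosome 4, split the libraries into 13 with at most 10 counts (7 of them ctrl-PBS) and 36 with at least 178, and calls against ctrl-PBS that change within these 36 are given with both values.

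The gene starts of Trem2 and Inpp5d illustrate the letters that PU.1 is known to bind. In the RefSeq promoter table (GRCm38.p6), 6 of the 10 genes had an entry: Trem2, Inpp5d, Plcg2, Cd33, Cd300lf and Cd84. The core GAGGAA, or TTCCTC on the other strand, occurred in the 250 bases before the start of 4 of these 6 genes, and in 23.3% of all 32851 promoters in the table. The longer form GAGGAAGT, which contains the core, was found in the window of Inpp5d alone among the 6 and in 2.44% of all promoters. The 2 windows below are examples. The windows of Cd33 and Cd300lf hold the core as well, those of Plcg2 and Cd84 do not, and all 10 genes were higher in TDP-PBS. Capitals mark the core, which begins 40 bases before the start in Trem2 (chr17:48346151-48346400, plus strand) and 20 bases before it in Inpp5d (chr1:87620062-87620311, plus strand). These matches describe the letters only.
Trem2: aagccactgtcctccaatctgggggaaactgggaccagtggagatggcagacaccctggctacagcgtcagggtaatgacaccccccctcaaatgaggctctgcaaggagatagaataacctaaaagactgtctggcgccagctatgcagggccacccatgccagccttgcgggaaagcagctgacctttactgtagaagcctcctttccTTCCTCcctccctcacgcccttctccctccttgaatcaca
Inpp5d: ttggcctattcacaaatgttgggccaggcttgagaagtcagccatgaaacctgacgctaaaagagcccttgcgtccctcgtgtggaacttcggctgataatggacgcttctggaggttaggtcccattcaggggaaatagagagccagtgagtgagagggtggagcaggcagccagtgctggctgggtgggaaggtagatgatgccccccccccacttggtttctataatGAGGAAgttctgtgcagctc

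Against ctrl-PBS, all 10 genes were higher in TDP-PBS (two-sided quasi-likelihood test of edgeR, Benjamini-Hochberg adjustment over all 18220 genes, adjusted p under 0.05), where 21.9% of all tested genes were called higher, 21.6% lower and 43.5% in either direction. The median log2 fold change of the 10 genes was 0.76, and that of all genes tested was −0.00039. In TDP-15 all 10 genes were again higher, with a median of 0.74, where 23.6% of all genes were called higher, 23.2% lower and 46.9% in either direction. In TDP-10+12, 9 of 10 were higher, with a median of 0.62, and Abi3 was the exception, where 20.8% of all genes were called higher, 20% lower and 40.8% in either direction. The 3 comparisons share the ctrl-PBS mice and are not independent of each other. Because the tissue is bulk neocortex, more microglia and more RNA of a gene per microglial cell cannot be told apart in any of these values.

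**Figure D1:**
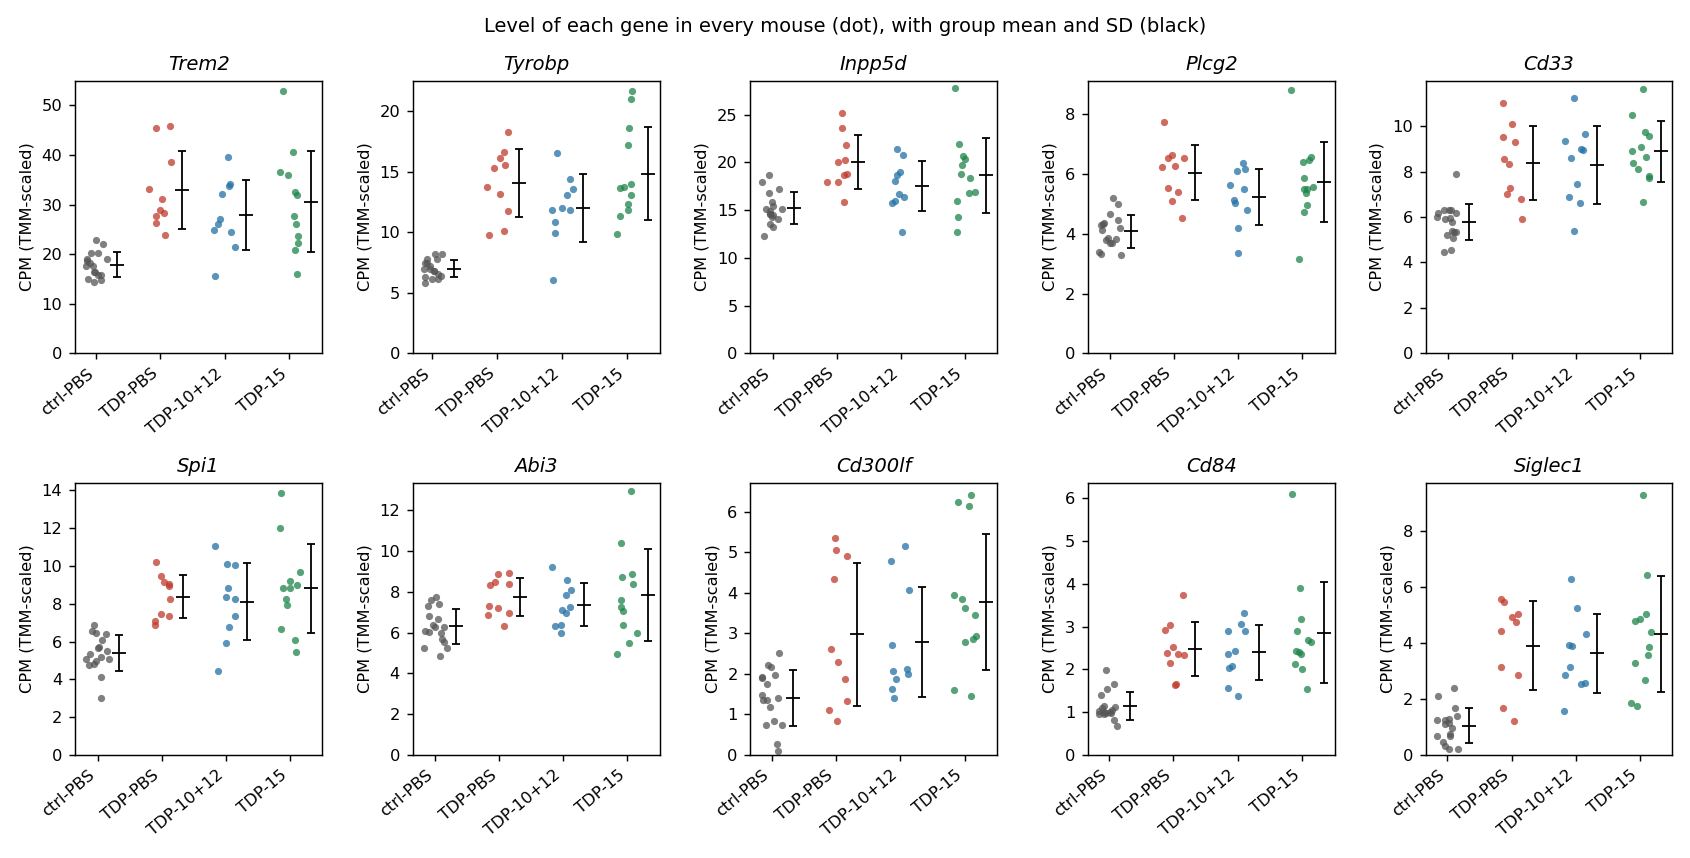
Level of each gene (y axis, CPM scaled by TMM, the edgeR library scaling) in every mouse (dots) of the 4 groups (x axis), with the group mean and SD in black. In TDP-PBS every mouse lies above every ctrl-PBS mouse for Trem2, Tyrobp and Spi1, while the groups overlap for the other genes; mouse 126 is the highest green dot in all panels but Cd300lf.

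The receptor and its adaptor were both higher in all 3 bigenic groups. Trem2 (chromosome 17, 48346401 to 48352276) lay between 14.3 and 22.9 CPM in ctrl-PBS (median 17.6), between 23.9 and 45.8 CPM in TDP-PBS (median 30.1), between 15.6 and 39.6 CPM in TDP-10+12 (median 26.6) and between 15.9 and 53.0 CPM in TDP-15 (median 29.8). Each of the 10 TDP-PBS mice exceeded the highest ctrl-PBS mouse, as did 8 of 10 TDP-10+12 and 9 of 12 TDP-15 mice, and the lowest mice of the vaccinated groups, 242 and 184, lay within the ctrl-PBS range. The share of all tested genes with no overlap at all between TDP-PBS and ctrl-PBS, in the upward direction, was 2.31%, and it was 2.23% for TDP-10+12, where 0 of the 10 genes reached it. The log2 fold change of Trem2 was 0.88 (SE 0.13, adjusted p = 1.5e-07) in TDP-PBS, 0.64 (SE 0.13, adjusted p = 6.5e-05) in TDP-10+12 and 0.78 (SE 0.12, adjusted p = 7.47e-07) in TDP-15.

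Tyrobp (chromosome 7, 30413782 to 30417582) had the tightest control values of the 10 genes relative to their size, between 5.77 and 8.17 CPM in ctrl-PBS (median 6.95). It lay between 9.80 and 18.2 CPM in TDP-PBS (median 14.5), between 6.03 and 16.6 CPM in TDP-10+12 (median 11.9) and between 9.83 and 21.7 CPM in TDP-15 (median 13.7). All mice of TDP-PBS and of TDP-15 exceeded the highest ctrl-PBS mouse (2.45% of all genes did so in TDP-15), and in TDP-10+12 mouse 242 alone did not. The log2 fold changes were 1.01 (SE 0.11, adjusted p = 1.63e-10), 0.78 (SE 0.11, adjusted p = 1.27e-07) and 1.09 (SE 0.11, adjusted p = 3.27e-12) for TDP-PBS, TDP-10+12 and TDP-15.

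The enzymes below the adaptor rose less. Inpp5d encodes SHIP1, which removes the phosphate that phosphoinositide 3-kinase adds (chromosome 1, 87620312 to 87720510), and lay between 12.3 and 18.7 CPM in ctrl-PBS (median 14.9), between 15.9 and 25.1 CPM in TDP-PBS (median 19.4), between 12.7 and 21.5 CPM in TDP-10+12 (median 17.4) and between 12.7 and 27.8 CPM in TDP-15 (median 18.6). The groups overlapped in all 3 comparisons, with 6 of 10, 4 of 10 and 6 of 12 mice above the ctrl-PBS maximum. Its log2 fold change was 0.40 (SE 0.08, adjusted p = 0.000118) in TDP-PBS and 0.30 (SE 0.08, adjusted p = 0.00188) in TDP-15. In TDP-10+12 it was 0.21 (SE 0.09, adjusted p = 0.0467), a call close to the threshold that was lost with DESeq2 (adjusted p = 0.0534) and without ctrl-PBS mouse 137 (adjusted p = 0.0503), a library with 610 counts of the neutrophil gene Ngp.

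Plcg2 encodes the phospholipase that turns TYROBP signals into a calcium response (chromosome 8, 117498275 to 117635142). It lay between 3.28 and 5.20 CPM in ctrl-PBS (median 4.14), between 4.53 and 7.76 CPM in TDP-PBS (median 6.25), between 3.37 and 6.36 CPM in TDP-10+12 (median 5.32) and between 3.15 and 8.83 CPM in TDP-15 (median 5.55). The ranges overlapped in each comparison, but 8 of 10, 5 of 10 and 9 of 12 mice exceeded the ctrl-PBS maximum. The log2 fold changes were 0.57 (SE 0.10, adjusted p = 8.53e-06), 0.36 (SE 0.10, adjusted p = 0.00416) and 0.49 (SE 0.10, adjusted p = 3.39e-05).

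Spi1, which encodes PU.1 (chromosome 2, 91082374 to 91115759), lay between 3.01 and 6.86 CPM in ctrl-PBS (median 5.35), between 6.87 and 10.2 CPM in TDP-PBS (median 8.60), between 4.42 and 11.03 CPM in TDP-10+12 (median 8.33) and between 5.45 and 13.9 CPM in TDP-15 (median 8.83). The lowest TDP-PBS mouse, 196, lay just above the highest ctrl-PBS mouse, 146, so that these groups did not overlap, while the vaccinated groups each had 3 mice within the ctrl-PBS range. The log2 fold changes were 0.64 (SE 0.12, adjusted p = 2.06e-05), 0.59 (SE 0.12, adjusted p = 7.27e-05) and 0.71 (SE 0.12, adjusted p = 8.91e-07).

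Abi3, an adaptor of the WAVE complex that controls branched actin (chromosome 11, 95830072 to 95842476), had the smallest difference of the 10 genes in TDP-PBS and the smallest but for Inpp5d in the vaccinated groups. It lay between 4.85 and 7.75 CPM in ctrl-PBS (median 6.27), between 6.32 and 8.91 CPM in TDP-PBS (median 7.82), between 5.98 and 9.20 CPM in TDP-10+12 (median 7.19) and between 4.97 and 12.9 CPM in TDP-15 (median 7.44). The ranges overlapped widely, and 5 of 10, 4 of 10 and 5 of 12 mice exceeded the ctrl-PBS maximum. Its log2 fold change was 0.30 (SE 0.10, adjusted p = 0.0131) in TDP-PBS, 0.23 (SE 0.10, adjusted p = 0.0685) in TDP-10+12 and 0.32 (SE 0.10, adjusted p = 0.00557) in TDP-15. Exons of Abi3 overlap exons of 3 genes on the opposite strand in GENCODE M21 (Gngt2, Phospho1 and Zfp652), and as the strand setting of the counting is not given in the sources used here, the count of Abi3 is uncertain. Within the 36 libraries with more than 10 Fam205a3 counts, the TDP-PBS value was 0.29 and missed the threshold (adjusted p = 0.087). In TDP-10+12 the value of 0.23 passed it in a fit of these 2 groups alone (adjusted p = 0.0224) and when mouse 126 was left out (adjusted p = 0.0398), and a value of 0.26 did so without mouse 242 (adjusted p = 0.0424).

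Cd33 and Siglec1 are the sialic acid receptors among the 10 genes. Cd33, a lectin (chromosome 7, 43527399 to 43537424), lay between 4.46 and 7.88 CPM in ctrl-PBS (median 5.90), between 5.91 and 11.02 CPM in TDP-PBS (median 8.44), between 5.38 and 11.2 CPM in TDP-10+12 (median 8.78) and between 6.68 and 11.6 CPM in TDP-15 (median 8.78). Of the 17 ctrl-PBS mice, 16 lay below all TDP-15 mice, with mouse 343 as the exception, but 9 lay below all TDP-PBS mice and 6 below all TDP-10+12 mice. The log2 fold changes were 0.54 (SE 0.10, adjusted p = 7.65e-06), 0.53 (SE 0.10, adjusted p = 1.28e-05) and 0.62 (SE 0.09, adjusted p = 1.16e-07).

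Siglec1 (CD169), a sialic acid receptor of macrophages that interferon is known to induce (chromosome 2, 131067801 to 131086778), had the largest differences of the 10 genes in all 3 comparisons. It was scarce in ctrl-PBS, between 0.201 and 2.40 CPM (median 1.09, as few as 4 counts in a library). It lay between 1.23 and 5.59 CPM in TDP-PBS (median 4.60), between 1.56 and 6.31 CPM in TDP-10+12 (median 3.53) and between 1.74 and 9.29 CPM in TDP-15 (median 4.14). In each bigenic group 1 or 2 mice remained within the ctrl-PBS range. The fold change was 3.70 in TDP-PBS, 3.45 in TDP-10+12 and 4.09 in TDP-15, which is 1.89, 1.78 and 2.03 on the log2 scale (SE 0.28, 0.28 and 0.26, adjusted p = 1.23e-07, 5.02e-07 and 6.41e-09). Its difference in TDP-PBS exceeded that of 99.5% of all genes tested, and that of Abi3 exceeded 83.4%.

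Cd84, a self-binding receptor of the SLAM family (chromosome 1, 171839697 to 171890718), lay between 0.668 and 1.98 CPM in ctrl-PBS (median 1.04), between 1.64 and 3.74 CPM in TDP-PBS (median 2.37), between 1.38 and 3.32 CPM in TDP-10+12 (median 2.40) and between 1.54 and 6.09 CPM in TDP-15 (median 2.53). The ranges overlapped by 2 mice in TDP-PBS, 2 in TDP-10+12 and 1 in TDP-15. The log2 fold changes were 1.12 (SE 0.17, adjusted p = 2.56e-07), 1.07 (SE 0.17, adjusted p = 7.11e-07) and 1.32 (SE 0.16, adjusted p = 9.67e-10).

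Cd300lf, a lipid-binding receptor with inhibitory motifs (chromosome 11, 115116214 to 115135372), was with Siglec1 the most variable of the 10 genes relative to its level in ctrl-PBS. It lay between 0.107 and 2.52 CPM in ctrl-PBS (median 1.40), the lowest value being 2 counts, and between 0.834 and 5.34 CPM in TDP-PBS (median 2.45). In TDP-10+12 it lay between 1.41 and 5.14 CPM (median 2.10) and in TDP-15 between 1.44 and 6.40 CPM (median 3.54). The TDP-PBS mice fell on both sides of the ctrl-PBS maximum, 5 above it and 5 below. The log2 fold changes were 1.07 (SE 0.30, adjusted p = 0.00256), 0.98 (SE 0.30, adjusted p = 0.00655) and 1.42 (SE 0.28, adjusted p = 3.21e-05). Within the 36 libraries with more than 10 Fam205a3 counts the TDP-PBS value was 0.53 and missed the threshold (adjusted p = 0.192).

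The spread of Cd300lf went with that of genes near it. Over all 49 mice, after removal of the group means, the 10 tested genes whose log2 CPM correlated most negatively with Cd300lf all lie on chromosome 11 (r from −0.70 for BC006965 to −0.56 for Gm11690). Of these 10, 8 lie within 2 Mb of Cd300lf, where 0.505% of all tested genes do. These genes were picked after the values had been seen. What part the mixed background has in this was not tested.

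**Figure D2:**
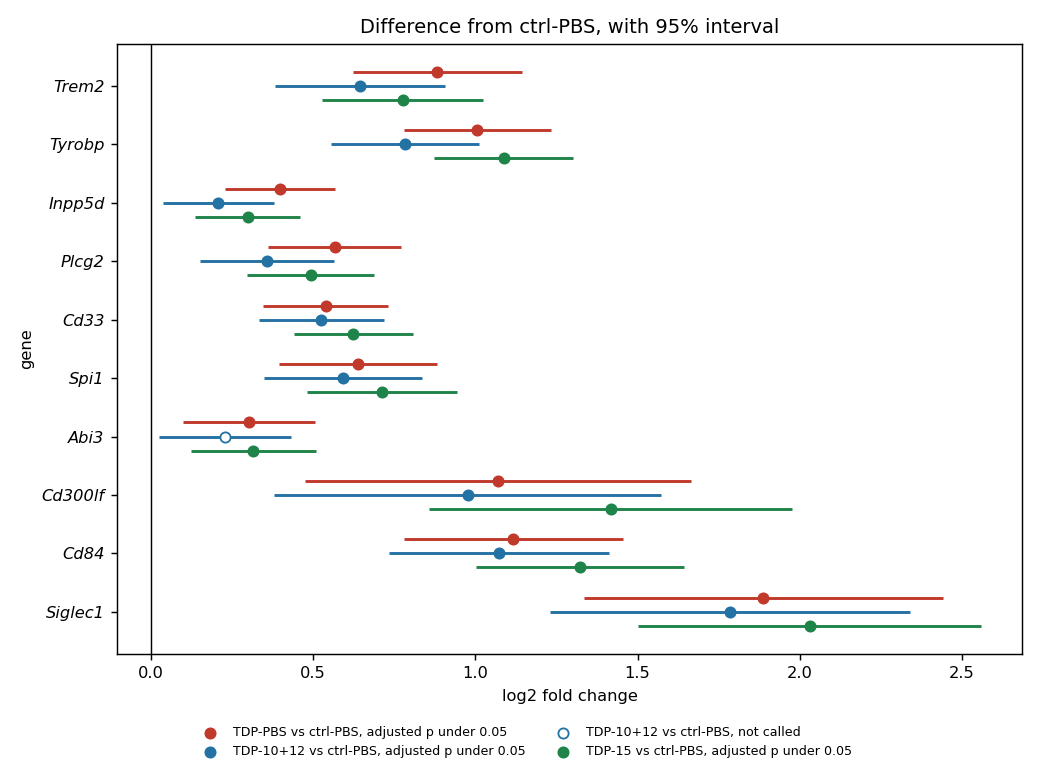
Log2 fold change against ctrl-PBS (x axis) of each gene (y axis) in TDP-PBS, TDP-10+12 and TDP-15, with 95% intervals from the edgeR fit. All 30 values lie above 0, from 0.21 for Inpp5d in TDP-10+12 to 2.03 for Siglec1 in TDP-15, and the open circle marks the value not called, that of Abi3 in TDP-10+12.

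Levels per length put the genes in an order that the groups largely shared. Per kilobase of merged GENCODE M21 exons, Tyrobp was the most abundant, with 10.5 ± 1.09 CPM per kb in ctrl-PBS (SD, n = 17) and 21.04 ± 4.24 in TDP-PBS (SD, n = 10), followed by Trem2 with 3.61 ± 0.503 and 6.67 ± 1.58. Inpp5d (1.999 CPM per kb) and Spi1 (1.996) were level in ctrl-PBS, and Abi3 had 1.52, Plcg2 0.951 and Cd33 0.742. Cd300lf (0.273), Cd84 (0.181) and Siglec1 (0.147) formed the low end. In TDP-PBS the order was the same except that Spi1 (3.11) lay above Inpp5d (2.63) and Siglec1 (0.548) above Cd84 (0.395), each pair with overlapping ranges. Counts of isoforms were not separated, so the lengths are upper limits for any 1 transcript. The merged length was 4946 bp for Trem2 and 667 bp for Tyrobp, and their order depends on these lengths. In CPM not divided by length, Trem2 (mean 17.9 in ctrl-PBS) lay above Tyrobp (6.98). Which of the 2 has more transcripts is therefore not settled by these values.

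Vaccinated mice did not differ detectably from TDP-PBS mice in any of the 10 genes. Of the 10, 0 were called in TDP-10+12 against TDP-PBS, 0 in TDP-15 against TDP-PBS and 0 in TDP-10+12 against TDP-15, where the share of all genes called was 0% each time (edgeR). DESeq2 and limma-voom also called 0 of the 10 in each comparison. At an unadjusted p under 0.05 there were 0, 0 and 1 of the 10, beside 953, 552 and 1244 of all genes.

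All 10 estimates of TDP-10+12 lay below those of TDP-PBS (median log2 difference −0.10) and below those of TDP-15 (median −0.13), while TDP-15 lay above TDP-PBS for 7 genes and below it for 3 (median 0.08). Since the genes vary together from mouse to mouse, 10 like signs are not 10 independent observations, and without mouse 242 the estimates of Cd33, Spi1 and Cd84 against TDP-PBS lay above 0 (0.042, 0.025 and 0.010). Trem2 was lower by a log2 value of −0.24 in TDP-10+12 than in TDP-PBS, with a 95% interval from −0.53 to 0.05 (adjusted p = 0.954, edgeR), and differed by −0.11 in TDP-15 (interval −0.39 to 0.17). Inpp5d came closest to the unadjusted threshold against TDP-PBS, with −0.19 in TDP-10+12 (interval −0.38 to 0.00, unadjusted p = 0.0517 and adjusted p = 0.953 from edgeR). Tyrobp was the gene with an unadjusted p under 0.05, at −0.30 in TDP-10+12 against TDP-15 (interval −0.55 to −0.06, unadjusted p = 0.0152, adjusted p = 0.614, edgeR). The intervals were narrowest for Inpp5d and Cd33 and widest for Cd300lf, whose difference between TDP-10+12 and TDP-PBS could lie anywhere between −0.75 and 0.56. For Trem2 the lower limit of −0.53 compares with the rise of 0.88 of TDP-PBS over ctrl-PBS.

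**Figure D3:**
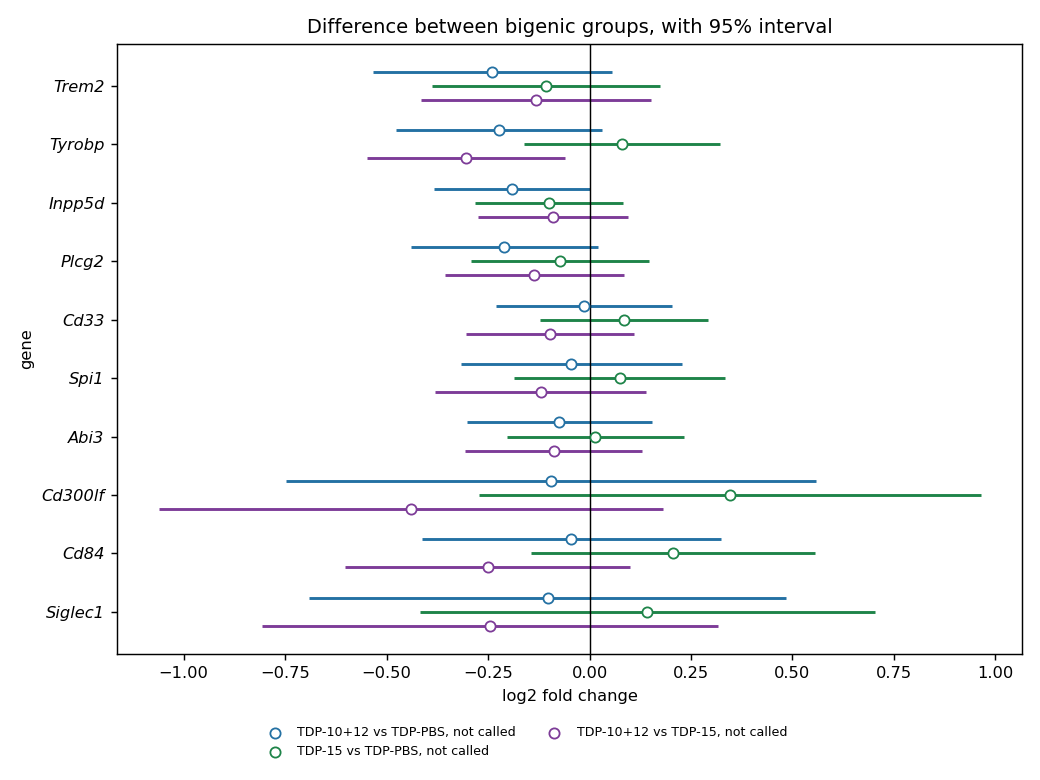
Log2 difference between bigenic groups (x axis) for each gene (y axis), with 95% intervals from the edgeR fit and open circles for values not called. Every interval but 1 includes 0, the exception being Tyrobp in TDP-10+12 against TDP-15 (−0.55 to −0.06), and no value passed the adjusted threshold.

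The pan-microglial markers moved with the 10 genes. In TDP-PBS 21.9% of all tested genes were called higher and 21.6% lower. Of the 11 markers, 10 were higher in TDP-PBS and Aif1 was not called, with a median log2 fold change of 0.74, and their summed level lay between 492 and 766 CPM in TDP-PBS, 355 and 721 in TDP-10+12 and 390.3 and 1026 in TDP-15. The homeostatic markers moved less: of 10, 5 were called higher and 0 lower in TDP-PBS (median 0.27), with P2ry12 at −0.09 (adjusted p = 0.206). In TDP-10+12, 3 were higher and 1 lower (median 0.15), where 20.8% and 20% of all tested genes were. In TDP-15, 5 were higher and 1 lower (median 0.27), where 23.6% and 23.2% of all tested genes were. The 10 genes were therefore also fitted relative to the pan-microglial markers, by scaling each library to their mean log2 level. The markers of both lists may themselves change per cell, so values on either scale are relative to marker RNA and not to the number of microglia. On the pan-microglial scale the median of all genes tested was −0.74 in TDP-PBS, −0.60 in TDP-10+12 and −0.70 in TDP-15. The median of the 10 genes was near 0 in all 3 (−0.0018, −0.028 and −0.026).

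Trem2 rose about as much as the pan-microglial markers did, with a relative log2 difference of 0.12 (interval −0.08 to 0.33), −0.00079 (−0.21 to 0.21) and −0.0018 (−0.20 to 0.19) in TDP-PBS, TDP-10+12 and TDP-15. Relative to the homeostatic markers it was higher in all 3, by 0.67, 0.49 and 0.56 (adjusted p = 3.37e-06, 0.000539 and 3.02e-05). Spi1 and Cd33 were likewise not called on the pan-microglial scale and were called higher on the homeostatic one in all 3 comparisons. Tyrobp rose more than the pan-microglial markers in TDP-PBS (0.25, adjusted p = 0.0121) and TDP-15 (0.34, adjusted p = 0.000404), and in TDP-10+12 the value was 0.14 (adjusted p = 0.152). Relative to the homeostatic markers Tyrobp was higher by 0.80 in TDP-PBS, 0.63 in TDP-10+12 and 0.87 in TDP-15 (edgeR, adjusted p = 3.13e-09, 1.01e-06 and 4.67e-11).

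Siglec1 and Cd84 rose beyond the markers in all 3 groups, on both scales. The relative log2 difference of Siglec1 was 1.09 in TDP-PBS, 1.13 in TDP-10+12 and 1.21 in TDP-15 (adjusted p = 5.29e-05, 4.75e-05 and 4.9e-06), and that of Cd84 0.35, 0.42 and 0.55 (adjusted p = 0.0226, 0.0079 and 0.000314). Cd300lf did so in TDP-15 (0.67, adjusted p = 0.0159), but not within the subset with Fam205a3 counts, since in those 36 libraries the value was 0.36 (adjusted p = 0.213). In TDP-PBS it turned from 0.27 to −0.23 in that subset and was not called in either (adjusted p = 0.359 and 0.444). Relative to the homeostatic markers Cd300lf was higher by 0.85 in TDP-PBS, 0.81 in TDP-10+12 and 1.19 in TDP-15 (edgeR, adjusted p = 0.0105, 0.0184 and 0.00017). The share of all genes called higher on the pan-microglial scale was 1.37% in TDP-PBS, 1.54% in TDP-10+12 and 1.59% in TDP-15, against 3, 2 and 4 of the 10 genes, and the share called in either direction was 87.6%, 80.9% and 86.8%.

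Inpp5d and Abi3 fell behind the pan-microglial markers, with relative log2 differences of −0.36, −0.42 and −0.45 for Inpp5d (adjusted p = 0.000108, 1.33e-05 and 1.17e-06) and of −0.44, −0.39 and −0.43 for Abi3 (adjusted p = 7.47e-05, 0.000545 and 5.82e-05), but relative to the homeostatic markers both lay above 0 and were not called (0.20 and 0.10 in TDP-PBS). Plcg2 was lower relative to the pan-microglial markers in TDP-10+12 (−0.28, adjusted p = 0.00611) and TDP-15 (−0.26, adjusted p = 0.00576), but above 0 relative to the homeostatic ones (0.21, adjusted p = 0.0845, and 0.28, adjusted p = 0.0107). In TDP-PBS its value of −0.19 narrowly missed the threshold (adjusted p = 0.0515), and it passed with sex as a covariate (−0.20, adjusted p = 0.0495), without mouse 126 (0.0471), without mouse 242 (0.0462) and within the 36 libraries (−0.29, adjusted p = 0.0239), while relative to the homeostatic markers it was higher (0.36, adjusted p = 0.00211). Being called lower on the pan-microglial scale was the rule, since 86.3%, 79.4% and 85.2% of all genes tested were.

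**Figure D4:**
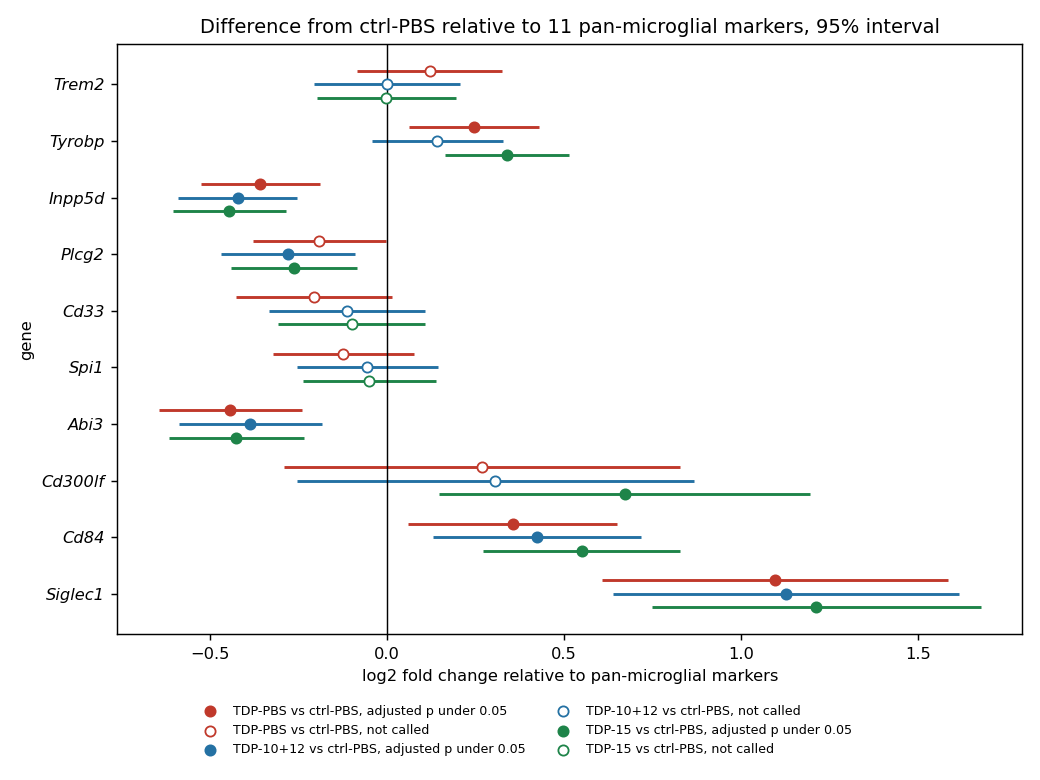
Log2 difference from ctrl-PBS after each library was scaled to its 11 pan-microglial markers (x axis), for each gene (y axis), with 95% intervals from the edgeR fit and open circles for values not called. Siglec1 and Cd84 lie to the right of 0 in all 3 groups, Inpp5d and Abi3 to the left, and Trem2, Spi1 and Cd33 have intervals that include 0. Relative to the homeostatic markers Inpp5d and Abi3 lie to the right of 0 and are not called.

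Markers of other cells were read beside these values. Against ctrl-PBS, 21.9% of all tested genes were called higher and 21.6% lower in TDP-PBS. The shares were 20.8% and 20% in TDP-10+12, and 23.6% and 23.2% in TDP-15. The summed level of 6 monocyte markers lay between 12.5 and 20.5 CPM in ctrl-PBS and between 16.1 and 27.2 CPM over the 3 bigenic groups. In TDP-PBS 1 of the 3 tested was called, Plac8 (log2 2.15), and 2 of 3 were called higher in TDP-10+12 and in TDP-15. The 6 border macrophage markers summed to between 4.09 and 8.91 CPM in ctrl-PBS and between 5.77 and 15.6 CPM in the bigenic groups, where 4 of 6 were called higher in TDP-PBS (median 0.62), led by Lyve1 (1.28) and Cbr2 (0.80), as were 4 of 6 in TDP-10+12 and 2 of 6 in TDP-15. Siglec1 is known to mark border macrophages too, and their part in its result was not tested. Of 6 neutrophil markers 2 were tested and 0 called in TDP-PBS (edgeR, median −0.46), while 1 was lower in TDP-10+12 (median −1.98) and 2 in TDP-15 (median −1.84), with Ly6g at 0 counts in 44 mice and the highest sum, 49.3 CPM, in ctrl-PBS mouse 137. Of 4 B cell markers Cd79a alone was tested and was not called (−0.10), and Ms4a1 had at most 6 counts in any mouse. Of the T and NK cell markers, Cd3d, Cd3e, Cd3g, Cd8a, Ncr1 and Klrb1c had at most 8 counts. Cd4, with 34 to 706 counts, was lower in TDP-PBS (log2 −1.19, adjusted p = 0.000257, edgeR). With the other markers so scarce, its value is not read as a change of T cells, and its source was not tested. Among neuron markers 4 of 6 were lower (median −0.34), among astrocyte markers 2 of 5 were lower (median −0.11), among oligodendrocyte markers 1 of 5 was higher (median 0.010), and among endothelial markers 1 of 4 was higher (median 0.026).

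From mouse to mouse within the bigenic groups, Trem2 and Tyrobp went together. After removal of the group means, their log2 CPM correlated with Pearson's r = 0.79 and Spearman's rho = 0.72 over 32 mice (two-sided permutation test within groups, p = 1e-05, the smallest 100000 resamples can give, and p = 3e-05). Without mice 126 and 184, the 2 farthest from the median of Trem2 on this scale, r was 0.73, and it was 0.82 in TDP-PBS, 0.69 in TDP-10+12, 0.85 in TDP-15, 0.79 in females and 0.80 in males. In all, 21 such relations were computed. The genes most like Trem2 in this measure, among 18219, were Lag3 (r = 0.86), Cd68 (0.84), Irf8 (0.83), Cd37 (0.83) and Man2b1 (0.83), and those most like Tyrobp were Ctsd (0.85), Cd68 (0.83), Cst7 (0.82), Lag3 (0.81) and Mpeg1 (0.81). Library depth and tissue composition are shared by all genes of a mouse and are part of every such value.

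Each gene was then fitted against a pan-microglial score, the mean log2 level of the 11 markers, in the 32 bigenic mice with group terms. The slope, in log2 units of the gene per log2 unit of the score, was called above 0 for 8 of the 10 genes, where 3.47% of all genes tested were and 4.52% in either direction. It was 1.08 for Trem2 (SE 0.17, adjusted p = 5.13e-05), 0.92 for Tyrobp (SE 0.15, adjusted p = 0.000112), 1.03 for Spi1 (SE 0.12, adjusted p = 4.48e-07) and 1.72 for Siglec1 (SE 0.30, adjusted p = 0.000243). Inpp5d (0.69), Plcg2 (0.85), Abi3 (0.61) and Cd84 (1.14) were called as well. Cd33 had a slope of 0.48 (adjusted p = 0.07), and Cd300lf of 1.23 (adjusted p = 0.143). Without mouse 126, whose score was the highest of all, 7 were called, Abi3 (0.46, adjusted p = 0.2) being lost. The shares of 3.47% and 4.52% are those of the fit with this mouse, and the share without it is not reported here.

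Against a score of 10 interferon-stimulated genes (Ifit1, Isg15, Irf7 and others), 3 of the 10 genes had a slope called above 0, where 1.49% of all genes tested did and 1.66% in either direction: Siglec1 (0.70, SE 0.12, adjusted p = 0.000202), Spi1 (0.34, SE 0.07, adjusted p = 0.00149) and Plcg2 (0.24, SE 0.06, adjusted p = 0.0331). Trem2 (0.30, adjusted p = 0.08) and Tyrobp (0.17, adjusted p = 0.427) were not called. Without mouse 126 the call of Plcg2 was lost (0.20, adjusted p = 0.286). With both scores in 1 model, 0 of 10 had a called interferon slope (edgeR, 103 of all genes, 0.565%), Siglec1 standing at 0.43 (adjusted p = 0.469). In the same model 7 of 10 had a called pan-microglial slope (1.38% of all genes), and that of Siglec1 was no longer called either (0.99, adjusted p = 0.236). Siglec1 correlated with the interferon score at r = 0.75 over the 32 mice, at 0.66 without mice 126 and 242, and at 0.54, 0.86 and 0.85 within TDP-PBS, TDP-10+12 and TDP-15. For Trem2 the same values were 0.52, 0.29, −0.17, 0.75 and 0.70, so that its relation to the interferon score was not seen within TDP-PBS.

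**Figure D5:**
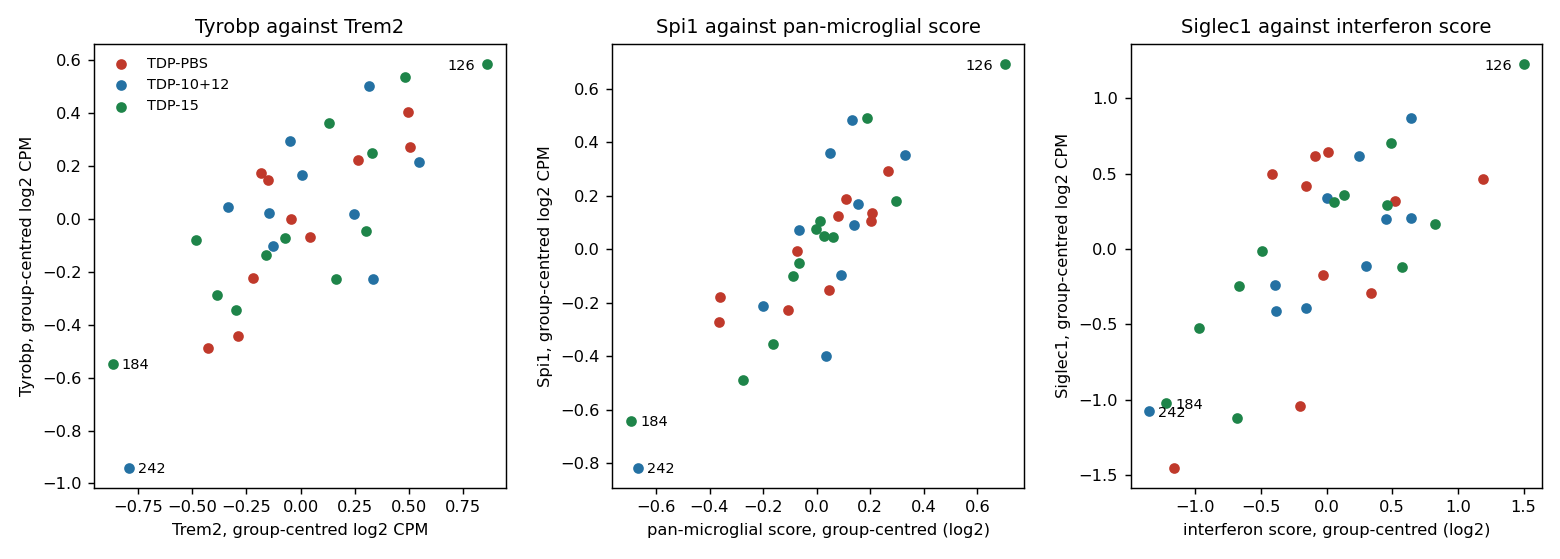
Each dot is 1 of the 32 bigenic mice, with the mean of its group subtracted on both axes (log2 scale): Tyrobp against Trem2 (r = 0.79), Spi1 against the pan-microglial score (r = 0.87) and Siglec1 against the interferon score (r = 0.75). Without the 2 mice farthest from the median of each x axis (126 and 184, 184 and 242, and 126 and 242) the values are 0.73, 0.79 and 0.66.

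The difference between TDP-PBS and ctrl-PBS was compared between the sexes in the 27 mice that received PBS. The interaction was called for 0 of the 10 genes and for 0 of 17363 genes tested (edgeR, 0%). Cd33 had an unadjusted p under 0.05, rising by a log2 value of 0.80 in females (SE 0.11) and 0.35 in males (SE 0.11), with a difference of −0.45 for males against females (interval −0.77 to −0.12, unadjusted p = 0.00942, adjusted p = 0.741, edgeR). Abi3 was the other, at 0.47 in females and 0.15 in males (difference −0.32, unadjusted p = 0.0437, adjusted p = 0.786, edgeR). For the other 8 genes the unadjusted p was over 0.05, and for Trem2 the values were 0.996 in females and 0.84 in males (difference −0.16, interval −0.55 to 0.24).

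Other genes of the same pathways were counted in TDP-PBS against ctrl-PBS, where 21.9% of all tested genes were called higher, 21.6% lower and 43.5% in either direction. Every list that follows is to be read beside these shares. In TDP-10+12 20.8% of all tested genes were called higher and 20% lower, and in TDP-15 23.6% and 23.2%. Of 25 genes of the TREM2-TYROBP signalling chain, 24 were tested, 10 were higher, 4 lower and 10 not called, with a median log2 fold change of 0.14 (8 higher and 5 lower in TDP-10+12, 10 and 3 in TDP-15). The largest increases were those of Pik3ap1 (1.02), an adaptor of phosphoinositide 3-kinase, and Ptpn6 (0.98), the phosphatase SHP-1, and the decreases those of Dok3 (−0.94) and Blnk (−0.40), both adaptors. Syk, the kinase that TYROBP recruits, had 3.94 ± 0.568 CPM in ctrl-PBS and 4.28 ± 0.787 in TDP-PBS and was not called (0.12, adjusted p = 0.437). Syk was named after its value had been seen.

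Many relatives of the receptors were too low to be tested. Of 15 genes of the TREM family and other TYROBP-coupled receptors, 5 were tested and 3 were higher (median 0.36), with Treml2 (1.63) and Clec5a (0.99) in front. Of 9 CD300 genes 2 were tested (median 0.52) and Cd300c2 (0.76) was higher, and of 7 Siglec genes 6 were tested (median 0.42) and 3 were higher, led by Cd22 (2.35) and Siglecf (1.58). Of 11 SLAM genes 5 were tested and 5 were higher (median 1.65), led by Ly9 (2.26) and Slamf6 (1.68). Cd22, Ly9 and Slamf6 averaged 0.220, 0.280 and 0.155 CPM in ctrl-PBS, and genes as low as these enter the test through the group in which they are high, so these counts are a description. Among the lipoproteins that TREM2 binds, Clu (0.18) and Apoe (0.18) were higher and 2 of 4 were not called (median 0.18).

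The partners of Abi3 moved in both directions. Of 10 genes of the ABI and WAVE complex 7 were lower and 3 higher (median −0.19), with Wasf1 (−0.63) and Nckap1 (−0.53), which neurons use, falling, and Nckap1l (0.49), the form of blood cells, and Wasf2 (0.18) rising. Of 8 tested partners of PU.1, 6 were higher (median 0.33), led by Irf8 (0.92) and Runx1 (0.87), and Mef2c (−0.39) was lower. Of 26 tested genes near other Alzheimer risk loci 11 were higher and 8 lower (median 0.17), with Ms4a6c (1.52) and Ms4a6b (1.16) at the top and Blnk (−0.40) and Sorl1 (−0.40) at the bottom.

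Genes that disease-associated microglia turn on were counted by their known need for TREM2. Of 11 that need it 9 were higher and Timp2 (−0.36) was lower, with a median of 0.78. Clec7a rose from 0.170 ± 0.132 CPM in ctrl-PBS to 2.59 ± 1.11 in TDP-PBS, and Cst7 from 0.0762 ± 0.0914 CPM, below the level of 3 counts, to 3.39 ± 1.90. Genes this low in ctrl-PBS enter the test through the groups in which they are high, so the count of 9 is a description. Of 6 that do not need TREM2, 4 were higher, led by B2m (1.47) and Ctsd (0.95), and Fth1 (−0.22) was lower, with a median of 0.52. All 10 interferon-stimulated genes were higher, with a median of 3.05, led by Mx1 (3.53) and Isg15 (3.41).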

How the data were processed

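RNA from about 30 mg of neocortex per mouse was read in 100 bp pairs. The authors deposited a table of unnormalized counts for mm10. The submitters' processing notes list HISAT, HISAT2, Bowtie, Bowtie2 and RSEM. The counting step, annotation and strand setting are not given in the sources used here. Groups and sexes come from the labels, and every mouse is 1 library.

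Low genes were removed by group with filterByExpr (min.count 10, min.total.count 15). TMM factors and 1 model of all 49 mice came from edgeR 4.0.16 in R 4.3.3 (glmQLFit, glmQLFTest, group means, no covariates). Standard errors and 95% intervals come from the F statistic, and p-values were adjusted over all genes tested. Scores are mean log2 CPM with a prior count of 2. Depth limits and intervals cover counting error or the spread between these mice only. Correlations used group-centred log2 CPM and 100000 permutations within groups (scipy 1.17.1, Python 3.11.15). Positions and promoters are from RefSeq (GRCm38.p6), exon lengths from GENCODE M21. The steps were tested on simulated counts.

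The 10 genes and all gene lists were chosen with earlier results of these data known. From each further list at most the 2 largest called increases and decreases in TDP-PBS are named, with the 5 genes most like Trem2 and Tyrobp, and marker genes where their counts stand beside a result. Alternatives were other scalings and filters, sex as a covariate, only the groups compared, limma-voom (limma 3.58.1), DESeq2 1.42.0 and a fold threshold. Leaving out mice 126, 242 or 137 and the 36 libraries with Fam205a3 counts were chosen after seeing the data. Some marker and neighbouring genes, and a fit of Cd300lf that used the latter, are not reported here.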

Additional observations from a re-analysis of the deposited data

How the results depend on the processing

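Against ctrl-PBS, 348 of 357 values of single genes under the alternatives kept their direction and side of the threshold, 6 lost the call, 3 gained it (Abi3 in TDP-10+12, smallest adjusted p = 0.0224) and 0 reversed. Those lost were Inpp5d in TDP-10+12 with no filter (adjusted p = 0.075), limma-voom (0.0593), DESeq2 (0.0534) and without mouse 137, and Abi3 and Cd300lf in TDP-PBS within the 36 libraries with Fam205a3 counts. Leaving out mouse 126, 242 or 137, 10 to 10 genes were called in TDP-PBS, 8 (without 137) to 10 in TDP-10+12 and 10 to 10 in TDP-15. With all 49 mice, 43.5%, 40.8% and 46.9% of all genes tested were called in these 3 comparisons. The shares of the fits without a mouse are not reported here. An absolute log2 fold change over 1 left 4, 2 and 4 of 10 (2.69%, 2.41% and 2.85% of all genes). Scaling to homeostatic markers gave 8 called genes in TDP-PBS in place of 5 (48.5% of all genes in place of 87.6%). With both scores in 1 model 0 interferon slopes were called. The causes were not tested.

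Between bigenic groups 0 of the 10 genes were called in any alternative, and 13 of 354 values changed sign. In TDP-10+12 against TDP-PBS these were Cd33 (−0.013 to 0.042), Spi1 (−0.045 to 0.025) and Cd84 (−0.045 to 0.010) over the omissions of mice 126, 242 and 137, above 0 without 242, Spi1 (0.046) and Cd300lf (0.27) within the 36 libraries, and Cd300lf (0.15) and Siglec1 (0.039) with limma-voom. In TDP-15 against TDP-PBS they were Tyrobp (−0.010) and Cd33 (−0.0010) within the 36 libraries, Spi1 (−0.0019 to 0.075), Abi3 (−0.073 to 0.014) and Siglec1 (−0.016 to 0.14) over the same omissions, below 0 without 126, and Abi3 (−0.041) with limma-voom.

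Siglec1 and Cd300lf, with as few as 4 and 2 counts in a control library, carry the largest counting error. Requiring 10 counts in all mice keeps 8 of the 10 genes. No paired analysis was possible because every mouse is a separate animal and no replicate number is shared between groups.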
